A study of Rattus norvegicus with 9 samples.

Results

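Interferon-stimulated genes, the interferon regulatory factors (Irf) and the signal transducers and activators of transcription (Stat) were followed through messenger RNA of rat striatum, the deep forebrain nucleus in which many brain hemorrhages occur. The set was chosen by gene name. It took every gene ID that began with Ifit, Ifitm, Ifi, Irf, Isg, Oas, Mx, Gbp, Stat, Ifnar or Ifngr and a digit, with Oasl and Irgm, and it added Zbp1, Rsad2, Usp18, Ifih1, Ddx58, Bst2, Dhx58 and Rtp4 by name. The rule itself uses no measured value, but the set was proposed with earlier results of these data known. It found 70 of the 22890 gene IDs in the count tables. Of the 70 genes, 4 (Irf2bp1, Irf2bp2, Irf2bpl and Isg20l2) matched by spelling and are not interferon regulatory factors or interferon-stimulated exonucleases themselves, and they are described apart.

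Per the labels, 9 libraries of striatal tissue fell into 3 groups of 3. Sham was the control group, ICH stood for intracerebral hemorrhage, which is bleeding into the brain tissue, and EDB was named for edaravone dexborneol, a free radical scavenger combined with dexborneol. Whether the EDB animals carried a hemorrhage too is not said in the labels, and neither are strain, age, sex, dose, how the bleed was made, or the time of sampling. EDB was therefore set against ICH and against Sham. Separate animals are not named for the 3 libraries of a group, so p-values measure the spread between these libraries only.

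Interferons are secreted proteins by which a cell warns its neighbours of foreign or misplaced nucleic acid. Type I interferons bind the receptor chains Ifnar1 and Ifnar2, and type II interferon binds Ifngr1 and Ifngr2. Receptor-bound Janus kinases then phosphorylate Stat proteins, which enter the nucleus, alone or with Irf9, and switch on genes that carry an interferon-stimulated response element (ISRE) or a gamma-activated site (GAS). In the brain, microglia, astrocytes, endothelium and incoming leukocytes can all respond.

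Total counts per library ran from 14658110 to 17659936. Levels are given as CPM, that is, counts relative to scaled library sizes, and they are compared between libraries for 1 gene, never between genes, because they are not divided by gene length. A count of 0 allows up to 3 counts, which is 0.162 to 0.212 CPM depending on the library. Markers of striatal neurons were plentiful, with Drd1, a dopamine receptor, at 239 to 397 CPM and Ppp1r1b at 2329 to 6171 CPM. Single libraries stood apart in ways that the groups do not explain. Sham 2 lay away from the other Sham libraries on the second principal component, and the Y-linked gene Kdm5d had 0 counts in ICH 1 against 10.3 to 18.5 CPM in the others. Summed choroid plexus markers reached 7217 CPM in EDB 3 against 27.6 to 73.2 CPM elsewhere. Counts of interferon genes are given with these 3 libraries and without them.

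The ISRE is the DNA element that most directly ties many of these genes to interferon signalling, so promoter sequences are shown first. RefSeq promoter windows of the assembly GRCr8, from 250 bases before to 50 bases after the gene start, matched 55 of the 70 genes. The ISRE core was searched as GAAANNGAA on both strands, where N is any base. Below are 80 bases of the 6 genes with that core that had the smallest p in ICH against Sham, written 5′ to 3′ in the direction of the gene, with the core in capitals. A core on the opposite strand reads TTCNNTTTC, and overlapping cores run together.
Irgm (chr10:33742569-33742648, minus strand): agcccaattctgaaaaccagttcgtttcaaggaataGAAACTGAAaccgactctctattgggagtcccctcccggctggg
Oas1a (chr12:41330392-41330471, plus strand): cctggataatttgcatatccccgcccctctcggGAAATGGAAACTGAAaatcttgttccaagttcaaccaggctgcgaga
Bst2 (chr16:18255052-18255131, minus strand): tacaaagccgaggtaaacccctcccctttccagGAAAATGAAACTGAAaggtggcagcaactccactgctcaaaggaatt
Oasl2 (chr12:47383292-47383371, minus strand): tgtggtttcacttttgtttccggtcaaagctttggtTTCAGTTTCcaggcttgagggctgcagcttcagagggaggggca
Irf7 (chr1:205800048-205800127, minus strand): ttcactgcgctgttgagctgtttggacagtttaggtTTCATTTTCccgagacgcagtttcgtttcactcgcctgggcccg
Oas1i (chr12:41285157-41285236, plus strand): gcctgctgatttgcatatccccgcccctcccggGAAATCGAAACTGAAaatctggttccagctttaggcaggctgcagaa

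Irgm is an interferon-inducible GTPase, Oas1a, Oas1i and Oasl2 belong to the oligoadenylate synthetase family, Bst2 encodes tetherin, which holds virus particles at the cell surface, and Irf7 is a driver of type I interferon transcription. In Irgm the core began 34 bases before the gene start. Oas1a and Oas1i, both on chromosome 12, carried overlapping pairs that began at -41 and -35 in Oas1a and at -36 and -30 in Oas1i. Bst2 also held such a pair, at -131 and -125. Oasl2 and Irf7 held the core on the opposite strand, at -150 and -68.

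The core was present in 23 of the 55 windows (41.8%). It was present in 3251 of all 33469 RefSeq windows of that length (9.71%), in 758 of the 10853 windows of tested genes (6.98%), and in 131 of the 1235 windows of genes higher in ICH than in Sham (10.6%). By role, it was found in 7 of 8 GTPase windows, in 4 of 9 of the Oas family, in 1 of 7 of the Irf family, Irf7, in 0 of 6 Stat windows and in 0 of 4 receptor windows. Other effectors held it in 6 of 8 windows, Ifitm genes in 2 of 5, Ifit genes in 1 of 2 and sensors in 1 of 1. Mx1, the 1 Mx gene with a window, lacked it. Of the 4 genes matched by spelling 1, Irf2bp2, held it and is among the 23. The GAS core, searched as TTCNNNGAA (which reads the same on both strands), was present in 13 of the 55 windows (23.6%) and in 8.87% of all windows. Irf8 held it at -180 and -161 and Irf1 at -142. Ifi47, an inducible GTPase, lacked the ISRE core and held the GAS core at -212 and -96. A match is a string of letters and not a measured binding site, and binding was not measured here.

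**Figure D1:**
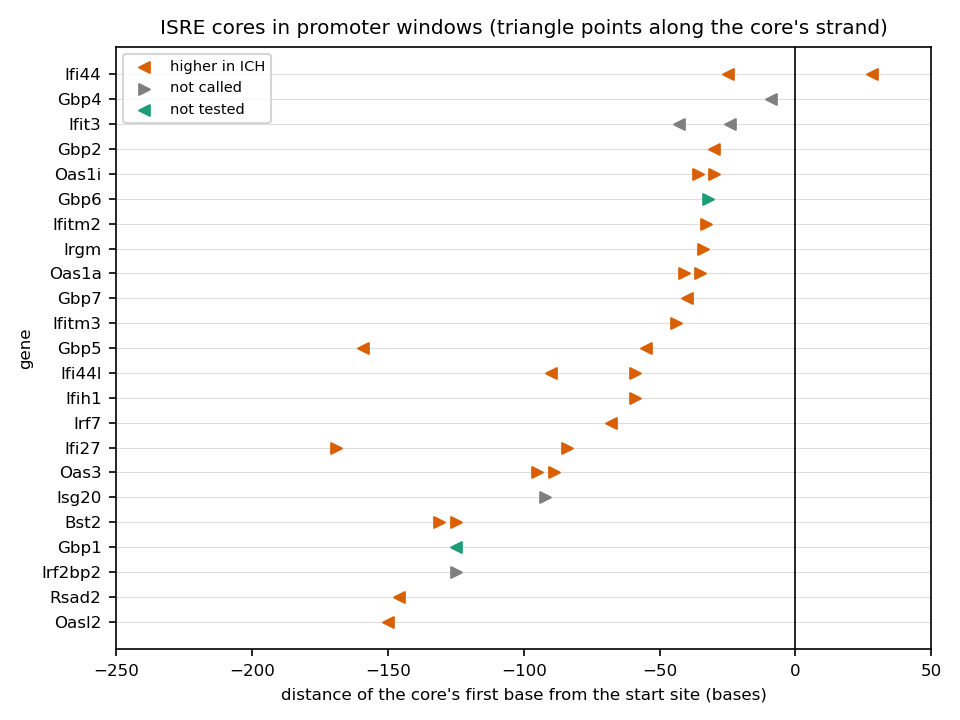
Position of each ISRE core in the promoter windows of the 23 genes that hold one. The x axis is the distance of the core's first base from the gene start in bases, each row is a gene, triangles point along the strand of the core, and colour gives the result of ICH against Sham. Most cores lie before the start within the nearest 150 bases, and only Ifi44 has one after it, at 28.

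Most of the set stood higher in ICH than in Sham. Of the 70 genes, 59 passed the filter on low counts and were tested. In a fit with no filter, 9 of the other 11 were tested and 0 were called in any comparison, also at an unadjusted p under 0.05, and Isg15 and Gbp1 had no counts. Where a gene is said to have risen by an amount, or a value stands with ±, it is the fitted log2 fold change with its SE, with 3 libraries against 3, and a gene is called at an adjusted p under 0.05. The 3 levels of a group are those of its libraries 1 to 3, in that order. In ICH against Sham, 42 of the 59 (71.2%) were called higher and 0 lower by edgeR's quasi-likelihood test, where 11.4% of all 14274 tested genes were called higher and 7.30% lower. At an unadjusted p under 0.05 the counts were 47 higher and 1 lower, against 17.7% and 13.8% of all genes. DESeq2 called 43 higher and 0 lower, against 12.6% and 10.3% of all genes. The median log2 fold change was 1.47 over the 59 genes and 0.0066 over all genes tested. The 3 ICH libraries lay above all 3 Sham libraries in 46 of the 59 genes (78%), against 20.2% of all genes tested. Without the 4 genes matched by spelling, 42 of 55 were higher, with a median of 1.53.

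The largest fitted rises were those of Zbp1, Mx1, Oas3, Ifitm1, Ifi27l2b and Ifi30. Leaving out Sham 2, ICH 1 and EDB 3 together left 39 called higher and 0 lower. The genes that lost the call were Gbp5, Ifi44l and Ifih1, described below. Bulk RNA cannot tell fewer cells of a type from less RNA per cell.

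**Figure D2:**
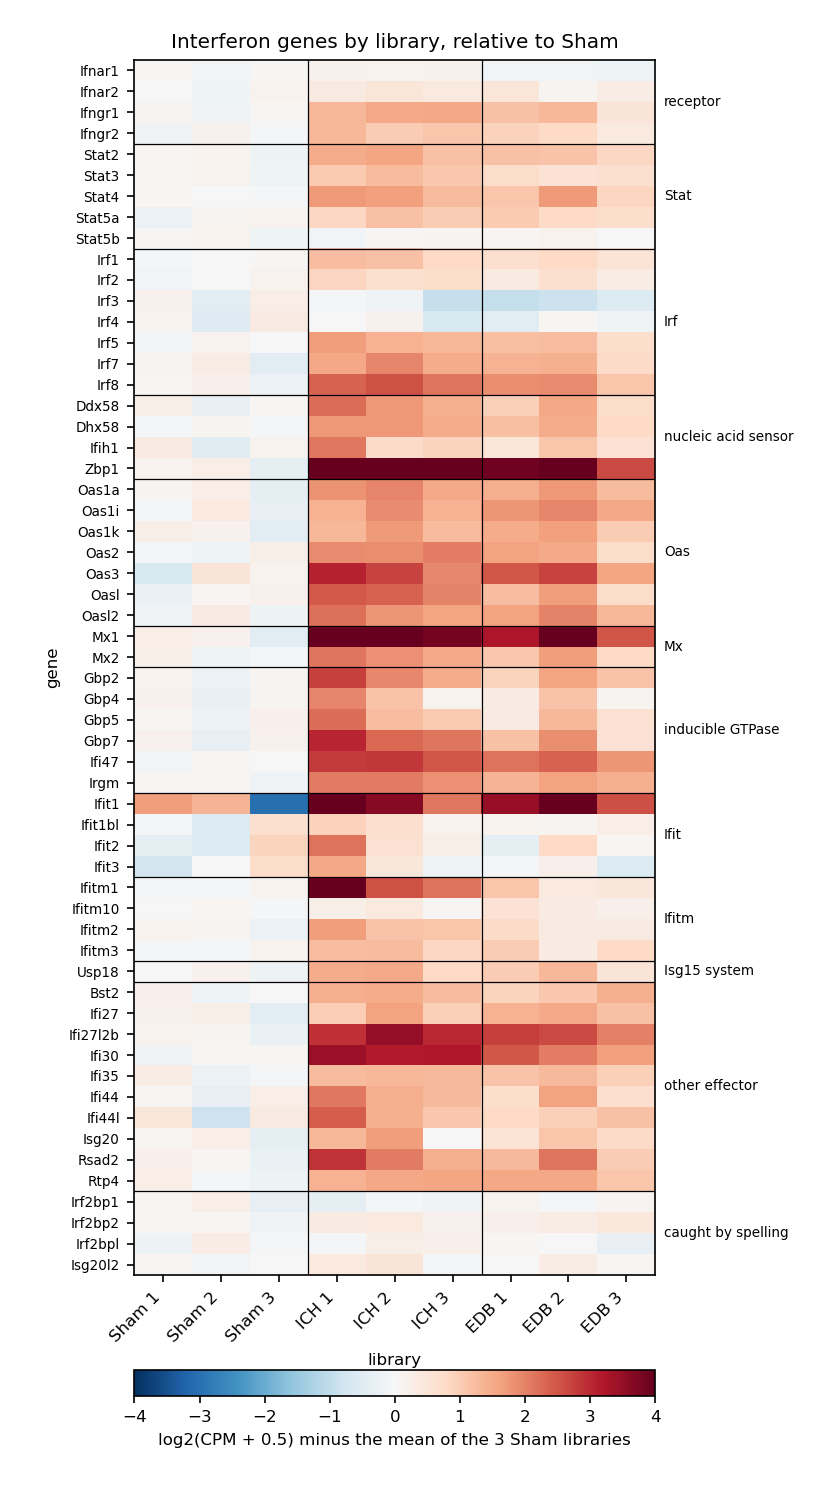
Each row is 1 of 58 tested genes, grouped by role, and each column is a library. Colour shows log2(CPM + 0.5) minus the mean of the 3 Sham libraries. The ICH columns are red for most rows, with Zbp1, Mx1 and Ifi30 among the deepest, while Ifnar1, Stat5b and the genes matched by spelling stay pale.

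Interferon genes themselves were listed with few counts or none. Of 12 ligand genes looked for, 8 were in the table and 0 passed the filter. Ifng, which encodes type II interferon, and Ifna1, Ifna4, Ifnk, Ifnl1 and Ifnl3 had 0 counts in all 9 libraries. Ifnb1, the type I interferon most cells can make, had 4 counts in ICH 1, 1 in ICH 2, 2 in EDB 2 and 0 in the other libraries. Ifne had 1 count, in ICH 2. The cause of these low counts was not tested, and nothing is read from them about the level of the transcripts.

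Receptor chains for type II interferon rose and those for type I were not called. Ifngr1, the ligand-binding chain, stood at 71.3, 60.2 and 68.8 CPM in Sham, 168, 190.5 and 193 CPM in ICH and 151, 169 and 95.2 CPM in EDB. All 3 ICH libraries lay above every Sham library, and the fitted log2 fold change in ICH against Sham was 1.46 ± 0.19, adjusted p = 0.000361. Ifngr2, the signalling chain, stood at 32.04, 39.6 and 34.1 CPM in Sham, 88.2, 71.3 and 75.9 CPM in ICH and 66.8, 61.1 and 46.4 CPM in EDB and rose by 1.16 ± 0.16, adjusted p = 0.000553. Ifnar1, a chain of the type I receptor, stood at 117, 103 and 116 CPM in Sham, 125, 123 and 126 CPM in ICH and 103, 104 and 98.8 CPM in EDB. Its ICH values lay above the Sham values, but the difference was small and not called (0.15 ± 0.10, adjusted p = 0.330). Ifnar2, the partner chain, stood at 19.7, 17.2 and 21.3 CPM in Sham, 24.7, 27.3 and 25.4 CPM in ICH and 27.1, 20.9 and 23.9 CPM in EDB, with a log2 fold change of 0.41 ± 0.15, adjusted p = 0.0784. Ifnar2 was called higher (0.51, adjusted p = 0.0440) only when libraries were scaled by their size alone. Whether Ifngr1 rose more than Ifnar1 was not tested.

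Of 5 Stat genes tested, 4 rose in ICH against Sham, where 11.4% of all tested genes were called higher. Stat2, the partner of Irf9 in the complex that binds the ISRE, stood at 52.1, 55.6 and 43.02 CPM in Sham, 139, 149.6 and 113 CPM in ICH and 112, 111 and 89.3 CPM in EDB and rose by 1.42 ± 0.15, adjusted p = 0.000118. Stat3, which carries interleukin 6 signals, stood at 84.3, 88.9 and 71.6 CPM in Sham, 167, 195 and 173 CPM in ICH and 137, 122 and 127 CPM in EDB and rose by 1.13 ± 0.12, adjusted p = 0.000112. In both genes every ICH value was above every Sham value, and every EDB value lay between the ranges of the other groups. Of all tested genes, 20.2% had ICH above Sham without overlap and 13.6% had EDB below ICH. By edgeR neither gene was called in EDB against ICH. Stat4, best known for interleukin 12 signalling in T and NK cells, stood at 72.8, 68.8 and 65.5 CPM in Sham, 226, 217 and 167 CPM in ICH and 149, 228 and 125 CPM in EDB and rose by 1.56 ± 0.21, adjusted p = 0.000464.

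The 7 T and NK cell markers found in the table summed to 1.13 to 2.81 CPM over the 9 libraries. Of these, 2 were tested and 0 were called in any comparison, and Cd3d was at 0 to 2 counts. Stat5a, a mediator of cytokine and growth factor signals, stood at 6.996, 8.96 and 9.27 CPM in Sham, 15.3, 19.5 and 17.3 CPM in ICH and 17.6, 14.9 and 14.1 CPM in EDB and rose by 1.05 ± 0.18, adjusted p = 0.00260. Its close relative Stat5b stood at 65.02, 69.7 and 56.7 CPM in Sham, 58.6, 66.3 and 68.8 CPM in ICH and 67.2, 70.3 and 62.8 CPM in EDB, and its groups overlapped (0.02 ± 0.12, adjusted p = 0.945). Reads that fit both of these similar genes carry an uncertainty of assignment that was not measured. Stat6, which carries interleukin 4 signals, had 2 summed counts in each group and did not pass the filter.

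Among the 8 tested Irf genes 5 rose and 0 fell in ICH against Sham, against 11.4% and 7.30% of all tested genes. Irf8, which myeloid cells need for their identity, stood at 20.9, 23.7 and 17.1 CPM in Sham, 106, 121 and 90.9 CPM in ICH and 74.6, 76.9 and 44.5 CPM in EDB and rose by 2.36 ± 0.22, adjusted p = 6.01e-05. Irf7 stood at 69.9, 79.4 and 48.4 CPM in Sham, 189.6, 249 and 179.7 CPM in ICH and 169.7, 175 and 110.5 CPM in EDB and rose by 1.64 ± 0.23, adjusted p = 0.000543. Irf5, which acts below toll-like receptors in myeloid cells, stood at 15.1, 17.98 and 16.4 CPM in Sham, 53.4, 44.02 and 42.1 CPM in ICH and 38.8, 39.7 and 26.9 CPM in EDB and rose by 1.496 ± 0.18, adjusted p = 0.000201. For these 3 genes the lowest ICH value was above the highest Sham value, as in 20.2% of all tested genes. Their highest EDB value was below the lowest ICH value, as in 13.6%. None of the 3 was called in EDB against ICH.

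Irf1, an early interferon-induced activator, stood at 10.99, 11.6 and 11.7 CPM in Sham, 27.7, 26.3 and 19.97 CPM in ICH and 18.1, 20.2 and 17.1 CPM in EDB and rose by 1.11 ± 0.16, adjusted p = 0.000857. Irf2, which can oppose Irf1, stood at 15.4, 16.6 and 18.5 CPM in Sham, 30.6, 26.6 and 27.4 CPM in ICH and 21.5, 26.5 and 20.6 CPM in EDB and rose by 0.74 ± 0.15, adjusted p = 0.00586. Irf3 and Irf4 were not called. Irf3, the constitutive factor that starts interferon transcription, stood at 19.4, 12.6 and 20.9 CPM in Sham, 16.6, 15.5 and 8.85 CPM in ICH and 8.66, 9.35 and 11.6 CPM in EDB, and its groups overlapped in ICH against Sham (-0.37 ± 0.27, adjusted p = 0.384). Irf4, a lymphoid and myeloid factor, ran from 1.13 to 2.69 CPM over all libraries (-0.20 ± 0.42, adjusted p = 0.805).

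Irf9 did not pass the filter, with 9 summed counts in Sham, 8 in ICH and 20 in EDB. Per scaled library size the EDB sum was 2.64 times the ICH sum, with a 95% interval of 1.11 to 6.93 that covers counting error only. In the edgeR fit without a filter Irf9 was not called in that comparison (adjusted p = 0.614). Isg15, a ubiquitin-like protein that is usually among the most abundant products of interferon signalling, was listed with 0 counts in all 9 libraries, as was Gbp1. The cause of these low values was not tested, and nothing is read from them about the level of the transcripts. Usp18, which removes Isg15 from proteins and dampens the type I receptor, stood at 26.4, 29.2 and 22.4 CPM in Sham, 72.7, 74.8 and 45.5 CPM in ICH and 52.2, 65.7 and 37.3 CPM in EDB and rose by 1.31 ± 0.24, adjusted p = 0.00317.

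Sensors of nucleic acid rose in 4 of 4 genes in ICH against Sham, where 11.4% of all tested genes were called higher. Zbp1, which detects left-handed nucleic acid and can trigger cell death, stood at 0.937, 1.09 and 0.495 CPM in Sham, 24.8, 26.5 and 21.7 CPM in ICH and 19.05, 22.8 and 7.75 CPM in EDB. The log2 fold change of 4.83 ± 0.43 (adjusted p = 4.74e-05) was the largest of the 59 genes, and the lowest ICH library was far above the highest Sham library. Ddx58, which encodes the RNA sensor RIG-I, stood at 23.8, 16.4 and 21.2 CPM in Sham, 97.03, 68.99 and 55.9 CPM in ICH and 40.1, 60.7 and 33.8 CPM in EDB and rose by 1.85 ± 0.26, adjusted p = 0.000626. Dhx58, a helper of these sensors, stood at 14.9, 16.9 and 14.7 CPM in Sham, 52.6, 53.1 and 44.6 CPM in ICH and 35.9, 43.7 and 26.99 CPM in EDB and rose by 1.69 ± 0.18, adjusted p = 0.000108.

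Ifih1, which encodes the long-RNA sensor MDA5, stood at 3.93, 1.98 and 3.33 CPM in Sham, 14.4, 5.47 and 5.88 CPM in ICH and 4.33, 6.95 and 4.75 CPM in EDB. Its call (1.47 ± 0.42, adjusted p = 0.0318) leaned on ICH 1, which was the highest library. Without ICH 1 the log2 fold change was 0.88 (adjusted p = 0.145), and the call was also lost without Sham 2 (adjusted p = 0.0887), without Sham 3 (adjusted p = 0.0746), with limma-voom (adjusted p = 0.0592), with the replicate block (adjusted p = 0.0518) and without Sham 2, ICH 1 and EDB 3 together (0.65, adjusted p = 0.217).

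**Figure D3:**
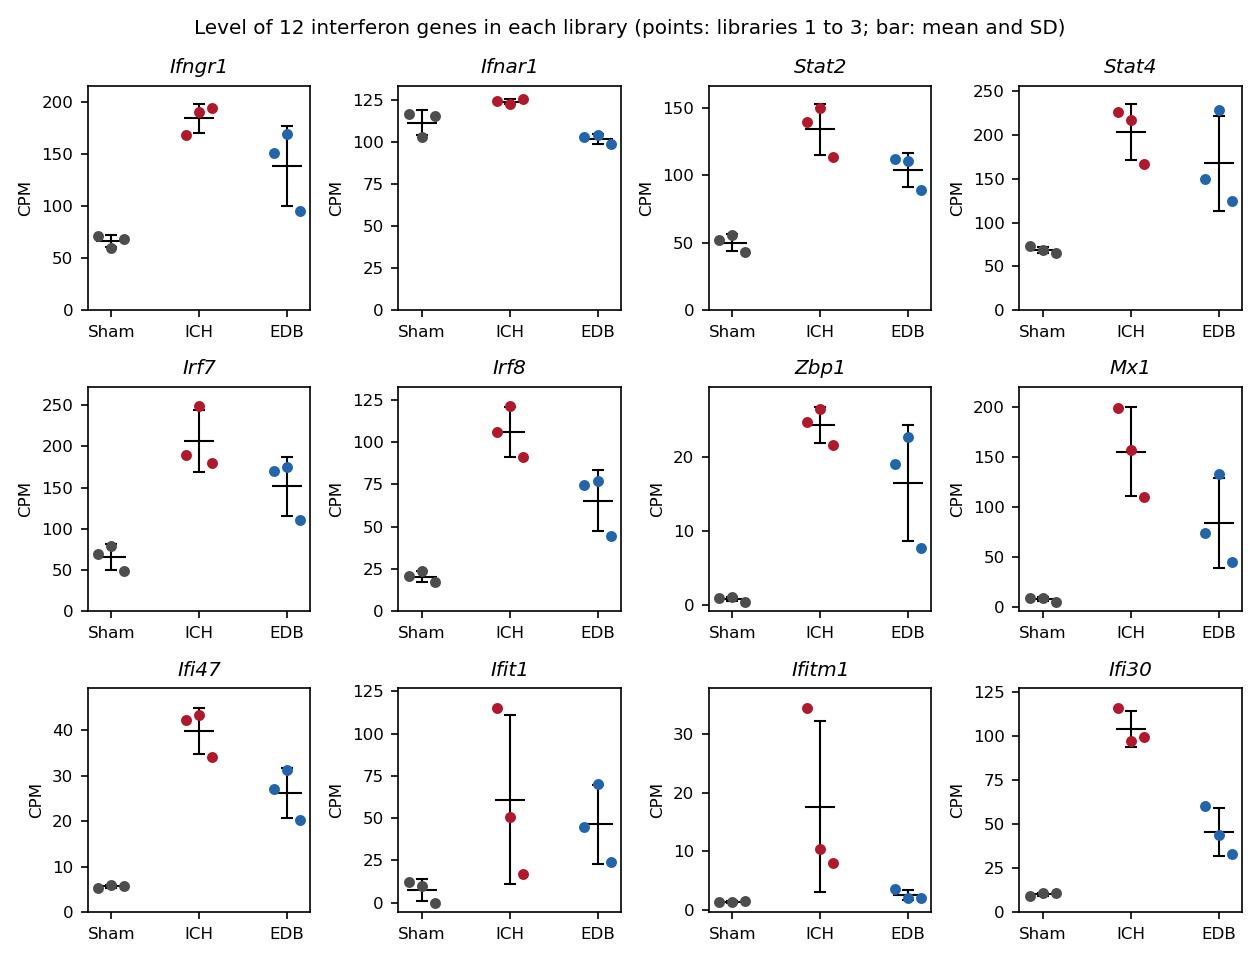
Level in CPM of 12 of the genes in each library, on linear axes of their own. Points are libraries 1 to 3 of a group and the bar is the mean with its SD. Ifngr1, Stat2, Irf7, Irf8, Mx1 and Zbp1 have no overlap between Sham and ICH, Ifnar1 barely moves, and Ifit1 and Ifitm1 are spread widely within ICH.

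Among the effector families, every tested Oas and Mx gene rose in ICH against Sham and no Ifit gene was called. Oas enzymes sense double-stranded RNA and make oligoadenylates that activate RNase L. All 7 tested Oas genes were called higher in ICH than in Sham, against 11.4% of all tested genes. Oasl, a relative that binds RIG-I, stood at 4.56, 5.95 and 6.30 CPM in Sham, 32.9, 30.9 and 23.5 CPM in ICH and 13.6, 18.9 and 9.56 CPM in EDB and rose by 2.38 ± 0.26, adjusted p = 0.000138. Oas1a stood at 17.2, 19.5 and 12.3 CPM in Sham, 57.4, 62.95 and 46.7 CPM in ICH and 45.1, 54.05 and 39.3 CPM in EDB and rose by 1.77 ± 0.20, adjusted p = 0.000148. Oas2 rose by 2.01 ± 0.24, Oasl2 by 1.87 ± 0.23, Oas1i by 1.59 ± 0.22 and Oas1k by 1.43 ± 0.22. In each of them all ICH values exceeded all Sham values, as in 20.2% of all tested genes.

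Oas3, which makes the longest oligoadenylates, stood at 0, 0.615 and 0.354 CPM in Sham, 6.06, 4.59 and 2.43 CPM in ICH and 3.83, 4.61 and 1.81 CPM in EDB. Its fitted rise of 3.75 ± 0.75 (adjusted p = 0.00539) rested on 14 summed counts in Sham against 222 in ICH, which is 13.8 times as many per scaled library size (95% counting interval 8.03 to 25.6). The fitted value was 3.11 without Sham 1 and 4.63 without Sham 2. Another 4 genes of the family did not pass the filter. Oas1d had 4 counts in all, Oas1e 22, Oas1f 18 and Oas1h 54. The Oas1 genes are close copies of each other, and how reads that fit several were assigned was not measured.

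The Mx GTPases, which wrap viral nucleocapsids, both rose in ICH against Sham, where 11.4% of all tested genes were called higher. Mx1 stood at 8.99, 8.41 and 5.17 CPM in Sham, 199, 156 and 109.7 CPM in ICH and 73.3, 133 and 44.6 CPM in EDB and rose by 4.36 ± 0.42, adjusted p = 6.77e-05. Mx2 stood at 72.3, 54.2 and 58.4 CPM in Sham, 273, 217 and 176 CPM in ICH and 131, 196 and 106 CPM in EDB and rose by 1.85 ± 0.24, adjusted p = 0.000349. EDB 2 was above the lowest ICH library in both genes, and EDB 3 was the lowest of its group.

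Interferon-inducible GTPases, which coat vacuoles that hold pathogens, rose in 5 of 6 tested genes, against 11.4% of all tested genes. Ifi47 stood at 5.31, 6.08 and 5.73 CPM in Sham, 42.3, 43.5 and 34.2 CPM in ICH and 27.1, 31.2 and 20.4 CPM in EDB and rose by 2.81 ± 0.19, adjusted p = 2.01e-05. Irgm stood at 13.4, 12.99 and 11.5 CPM in Sham, 54.8, 54.3 and 45.6 CPM in ICH and 33.4, 39.5 and 34.8 CPM in EDB and rose by 2.03 ± 0.14, adjusted p = 2.01e-05. The spread within groups was small in both genes. The guanylate-binding proteins varied more. Gbp2 stood at 8.81, 6.70 and 8.77 CPM in Sham, 55.8, 31.9 and 23.4 CPM in ICH and 15.3, 24.9 and 18.1 CPM in EDB and rose by 2.19 ± 0.31, adjusted p = 0.000685, and Gbp7 rose by 3.09 ± 0.47, adjusted p = 0.00108.

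ICH 1 was the highest library for Gbp2, Gbp4, Gbp5 and Gbp7. Gbp5, which also promotes inflammasome assembly, stood at 4.75, 3.83 and 5.45 CPM in Sham, 23.7, 11.7 and 10.1 CPM in ICH and 5.87, 12.5 and 7.31 CPM in EDB and rose by 1.70 ± 0.38, adjusted p = 0.00959, a call lost without Sham 2, ICH 1 and EDB 3 together (1.10, adjusted p = 0.0605). Gbp4 stood at 0.687, 0.342 and 0.637 CPM in Sham, 3.55, 1.82 and 0.648 CPM in ICH and 0.804, 1.80 and 0.625 CPM in EDB with overlapping groups and was not called (1.83 ± 0.67, adjusted p = 0.0815), except without ICH 3 (2.26, adjusted p = 0.0331). Gbp6 had 2 counts in all.

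No Ifit gene was called, although these RNA-binding proteins are typical interferon targets. Ifit1 stood at 12.4, 9.85 and 0 CPM in Sham, 115, 50.4 and 16.8 CPM in ICH and 44.96, 70.5 and 23.8 CPM in EDB. All ICH values were above all Sham values, yet the spread was wide, since Sham 3 had 0 counts and ICH ran from 16.8 to 115 CPM (3.03 ± 1.11, adjusted p = 0.105). Ifit1 was called with the replicate block (3.22, adjusted p = 0.0261). Ifit2 stood at 3.69, 3.21 and 9.48 CPM in Sham, 23.8, 7.74 and 5.88 CPM in ICH and 3.65, 8.75 and 5.12 CPM in EDB (1.20 ± 0.58, adjusted p = 0.186), and Ifit3 at 7.93, 13.5 and 22.6 CPM in Sham, 40.2, 18.4 and 11.9 CPM in ICH and 12.7, 15.6 and 8.998 CPM in EDB (0.68 ± 0.45, adjusted p = 0.346). Both values were smaller without ICH 1, the highest library. Without it the log2 fold change was 0.32 for Ifit2 and 0.051 for Ifit3, and without Sham 2, ICH 1 and EDB 3 together it was 0.055 for Ifit2 and -0.0047 for Ifit3. Sham 3, without a count for Ifit1, was the highest Sham library for Ifit2 and Ifit3. Ifit1bl ran from 0.684 to 2.80 CPM and was not called (0.69 ± 0.46, adjusted p = 0.351). Reads shared among these neighbouring copies were not examined.

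Ifitm proteins restrict the entry of viruses through membranes, and 3 of 4 tested rose, against 11.4% of all tested genes. Ifitm1 stood at 1.31, 1.30 and 1.56 CPM in Sham, 34.4, 10.4 and 7.99 CPM in ICH and 3.59, 1.98 and 2.06 CPM in EDB and rose by 3.66 ± 0.55, adjusted p = 0.00100. ICH 1 was the highest by a wide margin, and without it the rise was 2.73 (adjusted p = 0.00096). Ifitm2 stood at 9.24, 9.16 and 7.01 CPM in Sham, 27.9, 19.2 and 18.8 CPM in ICH and 14.5, 10.8 and 10.9 CPM in EDB and rose by 1.37 ± 0.22, adjusted p = 0.00141. Ifitm3, which acts in endosomes, stood at 16.4, 16.8 and 19.03 CPM in Sham, 41.7, 42.01 and 31.4 CPM in ICH and 35.7, 21.99 and 30.6 CPM in EDB and rose by 1.14 ± 0.19, adjusted p = 0.00216. Ifitm10 was not called (0.23 ± 0.17, adjusted p = 0.399). Ifitm5, a bone gene, had 13 summed counts in Sham, 3 in ICH and 3 in EDB, and Ifitm6 had 17, 16 and 13. Ifitm1, Ifitm2 and Ifitm3 are similar in sequence, and sharing of reads among them was not measured.

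Of the other 10 effectors, 9 rose in ICH against Sham, where 11.4% of all tested genes were called higher. Ifi30, which encodes the lysosomal thiol reductase GILT of antigen processing, stood at 9.24, 10.8 and 10.8 CPM in Sham, 116, 96.98 and 99.4 CPM in ICH and 60.1, 43.98 and 33.1 CPM in EDB. The 3 ICH libraries lay close together and far above Sham, and the rise was 3.34 ± 0.21, adjusted p = 1.57e-05. Ifi27l2b, of the Ifi27 family of mitochondrial proteins, stood at 2.31, 2.26 and 1.63 CPM in Sham, 18.8, 28.5 and 20.1 CPM in ICH and 16.9, 15.3 and 9.75 CPM in EDB and rose by 3.44 ± 0.28, adjusted p = 3.05e-05. Rsad2, which encodes viperin, an enzyme that makes a chain-terminating nucleotide, stood at 13.3, 11.96 and 9.34 CPM in Sham, 88.00, 50.1 and 32.3 CPM in ICH and 28.7, 51.9 and 23.4 CPM in EDB and rose by 2.30 ± 0.38, adjusted p = 0.00203.

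Bst2 stood at 26.9, 20.7 and 22.9 CPM in Sham, 64.6, 66.5 and 57.4 CPM in ICH and 43.3, 49.4 and 62.99 CPM in EDB and rose by 1.42 ± 0.16, adjusted p = 0.000174. Rtp4, a chaperone of receptors that also curbs RNA viruses, rose by 1.53 ± 0.17, Ifi35 by 1.34 ± 0.18, Ifi27 by 1.18 ± 0.22 and Ifi44 by 1.70 ± 0.31. Ifi44l, a relative of Ifi44, stood at 1.62, 0.342 and 1.42 CPM in Sham, 7.63, 3.52 and 2.70 CPM in ICH and 2.10, 2.40 and 2.87 CPM in EDB and rose by 2.02 ± 0.55, adjusted p = 0.0251. That call was lost without ICH 1 (1.46, adjusted p = 0.116), without Sham 3 (adjusted p = 0.0524) and without Sham 2, ICH 1 and EDB 3 together (1.03, adjusted p = 0.114). Isg20, an exonuclease that degrades viral RNA, had overlapping groups and was not called (1.39 ± 0.49, adjusted p = 0.0714). Isg20 was called without ICH 3 (1.79, adjusted p = 0.0128) and with DESeq2 (1.36, adjusted p = 0.0430).

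The 4 genes matched by spelling were not called. Irf2bp1, Irf2bp2 and Irf2bpl, which bind Irf2 or resemble proteins that do, had log2 fold changes in ICH against Sham of -0.20 ± 0.16, 0.29 ± 0.12 and 0.13 ± 0.16. Isg20l2 had 0.30 ± 0.20. All 4 were uncalled in each of the 3 comparisons.

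EDB against ICH gave few calls. Of the 59 genes, 2 (3.39%) were called lower and 0 higher by edgeR's quasi-likelihood test, where 0.631% of all tested genes were called lower and 0.0560% higher. At an unadjusted p under 0.05, 23 of the 59 (39.0%) were lower and 0 higher, against 9.98% of all genes lower and 6.26% higher. The median log2 fold change was -0.42, with 7 of the 59 values above 0, beside a median of -0.033 and 6596 of 14274 values above 0 over all genes. The 3 EDB libraries lay below all 3 ICH libraries in 18 of the 59 (30.5%), against 13.6% of all genes tested. This comparison and ICH against Sham share the ICH libraries, so their values are not independent of each other.

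Both calls were sensitive to the libraries used, and so was the share of all tested genes called lower. That share was 0.631% as reported, 0.0552% without ICH 2 or without EDB 2, and 1.58% without Sham 2. Ifi30 had a log2 fold change in EDB against ICH of -1.19 ± 0.19, adjusted p = 0.0356, and its highest EDB value, 60.1 CPM, was below its lowest ICH value, 97.0 CPM. The call of Ifi30 was lost without Sham 1 (adjusted p = 0.0575), Sham 3 (0.0522), ICH 1 (0.0916), ICH 2 (0.0946), ICH 3 (0.0686), EDB 2 (0.0887) or EDB 3 (0.0755), with log2 fold changes from -1.23 to -1.0, and with only the 6 libraries compared (adjusted p = 0.0519).

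Ifitm1 had -2.79 ± 0.52, adjusted p = 0.0439, and its EDB values of 3.59, 1.98 and 2.06 CPM lay close to Sham. Without ICH 1 the log2 fold change of Ifitm1 was -1.86 (adjusted p = 0.0869), and without Sham 2, ICH 1 and EDB 3 together it was -1.73 (adjusted p = 0.0518). The call was also lost without Sham 1 (adjusted p = 0.0677), Sham 3 (0.0712), ICH 2 (0.0880), EDB 1 (0.0801), EDB 2 (0.115) or EDB 3 (0.116), with limma-voom (0.0878) and with only the 6 libraries compared (0.0715).

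DESeq2 called 7 genes lower in EDB than in ICH and 0 higher, and it called more genes in general, 3.37% of all genes lower and 1.51% higher. Beside Ifi30 and Ifitm1 these were Oasl, Ifitm2, Stat3, Irgm and Gbp7. With edgeR their log2 fold changes were -1.05 ± 0.25, adjusted p = 0.0817 for Oasl, -0.86 ± 0.21, adjusted p = 0.0941 for Ifitm2, -0.47 ± 0.12, adjusted p = 0.0966 for Stat3, -0.52 ± 0.13, adjusted p = 0.0970 for Irgm and -1.39 ± 0.42, adjusted p = 0.147 for Gbp7. In all 5 the EDB libraries lay below the ICH libraries without overlap, as in 13.6% of all tested genes. The 5 were picked by their DESeq2 call in this same comparison, so that separation is not separate support.

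Among the regulators, Irf8 had -0.70 ± 0.21, adjusted p = 0.139, Irf7 -0.44 ± 0.22, adjusted p = 0.355, Irf5 -0.40 ± 0.17, adjusted p = 0.276, Irf1 -0.42 ± 0.16, adjusted p = 0.229 and Irf2 -0.30 ± 0.15, adjusted p = 0.349 in EDB against ICH. Irf3 had -0.46 ± 0.27 and Irf4 -0.04 ± 0.42. For the Stat genes the values were -0.36 ± 0.15 for Stat2, -0.28 ± 0.20 for Stat4, -0.16 ± 0.18 for Stat5a and 0.05 ± 0.12 for Stat5b. The receptor chains had -0.41 ± 0.18 for Ifngr1, -0.43 ± 0.16 for Ifngr2, -0.29 ± 0.10 for Ifnar1 and -0.11 ± 0.15 for Ifnar2. None of these was called. Ifnar1 was without overlap between the groups, at 98.8 to 104 CPM in EDB and 123 to 126 CPM in ICH. Of all tested genes 13.6% lay lower in EDB without overlap.

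Some effectors were at about their ICH level in EDB. The log2 fold change in EDB against ICH was -0.04 ± 0.21 for Oas1k, -0.09 ± 0.17 for Rtp4, 0.19 ± 0.21 for Oas1i and 0.17 ± 0.21 for Ifi27, and the groups overlapped in all 4. Zbp1 had -0.56 ± 0.33 and Mx1 -0.89 ± 0.35, with EDB 2 within or near the ICH range and EDB 3 well below it. Whether these genes differ in their change from Ifi30 or Oasl was not tested.

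**Figure D4:**
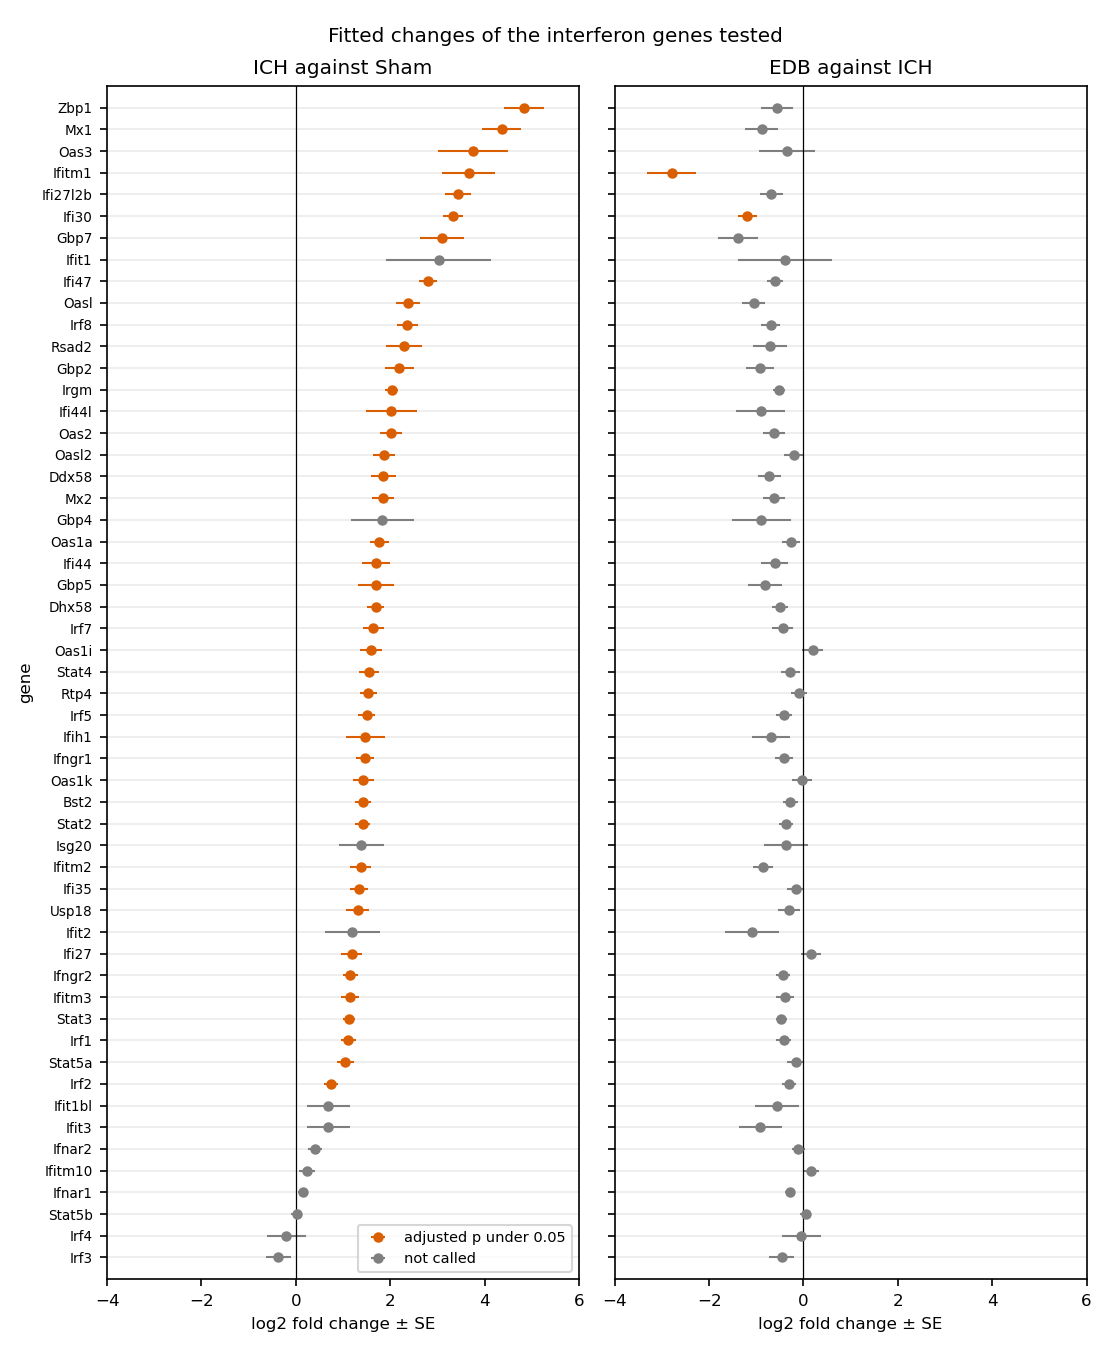
Fitted log2 fold changes with their SE for 54 tested genes, without those matched by spelling, ordered by ICH against Sham (left). The right panel shows EDB against ICH for the same rows. Orange marks an adjusted p under 0.05. On the left 42 points are orange and to the right of 0, and on the right only Ifi30 and Ifitm1 are orange.

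In EDB against Sham, 34 of the 59 genes (57.6%) were called higher and 0 lower by edgeR's quasi-likelihood test, where 4.95% of all tested genes were called higher and 2.71% lower. At an unadjusted p under 0.05, 42 were higher and 1 lower, against 12.8% and 10.1% of all genes. DESeq2 called 36 higher and 1 lower, against 7.33% and 5.28% of all genes. The median log2 fold change was 1.08, beside -0.0073 over all genes. The EDB libraries lay above all Sham libraries in 46 of the 59 (78%), against 15.1% of all genes. Both this comparison and ICH against Sham rest on the same Sham libraries. The 34 comprised 4 Irf, 4 Stat, 2 receptor and 3 sensor genes, all 7 tested Oas genes, both Mx genes, 3 GTPases, 1 Ifitm gene, Usp18 and 7 other effectors.

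Among the genes called, the largest differences between EDB and Sham were 4.28 ± 0.43 for Zbp1, 3.47 ± 0.40 for Mx1, 3.40 ± 0.75 for Oas3, 2.75 ± 0.28 for Ifi27l2b, 2.20 ± 0.19 for Ifi47 and 2.15 ± 0.21 for Ifi30. Ifit1 had 2.64 ± 1.10, adjusted p = 0.206 and was not called. Among regulators, Irf8 differed by 1.67 ± 0.22, adjusted p = 0.00135, Irf7 by 1.20 ± 0.22, adjusted p = 0.00854, Irf5 by 1.09 ± 0.18, adjusted p = 0.00387, Stat4 by 1.28 ± 0.21, adjusted p = 0.00404, Stat2 by 1.05 ± 0.15, adjusted p = 0.00222 and Stat3 by 0.66 ± 0.12, adjusted p = 0.00776. Ifngr1 differed by 1.05 ± 0.19. Oas3 lost its call without Sham 3 (adjusted p = 0.0739), EDB 1 (0.0618) or EDB 2 (0.0522), and its value was 2.79 without Sham 1 and 4.29 without Sham 2.

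Several calls in EDB against Sham were lost when 1 library was left out. Ifitm3 (0.76 ± 0.19, adjusted p = 0.0383) lost its call without Sham 1, Sham 2, Sham 3, ICH 2, EDB 1 or EDB 3, at an adjusted p of up to 0.147. Gbp2 (1.26 ± 0.31, adjusted p = 0.0315) lost it without Sham 1, Sham 2, Sham 3, ICH 2, EDB 2 or EDB 3, at up to 0.0907. Irf1 (0.69 ± 0.16, adjusted p = 0.0271) lost it without Sham 1, Sham 3, ICH 2, EDB 1 or EDB 2, at up to 0.101. Rsad2 (1.59 ± 0.38, adjusted p = 0.0289) and Ddx58 (1.13 ± 0.26, adjusted p = 0.0232) lost it without any 1 of Sham 1, Sham 2, Sham 3, EDB 1 or EDB 2, at up to 0.128 for Rsad2 and 0.0747 for Ddx58.

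Usp18 (0.99 ± 0.24, adjusted p = 0.0275) lost its call without Sham 1, Sham 3, EDB 1 or EDB 2, at up to 0.113, and Ifngr2 (0.72 ± 0.16, adjusted p = 0.0194) without the same libraries, at up to 0.0972. Stat5a (0.89 ± 0.18, adjusted p = 0.0146) lost it without Sham 1 (0.0672) or EDB 1 (0.0707), and Oasl (1.32 ± 0.26, adjusted p = 0.0108) without Sham 1 (1.19, adjusted p = 0.0531). With the replicate block, Gbp2 (adjusted p = 0.0519), Ifitm3 (0.0758) and Irf1 (0.0569) were not called. With limma-voom Gbp2 (0.0892), Ifitm3 (0.0672), Irf1 (0.0525), Rsad2 (0.0762) and Usp18 (0.0507) were not called. Rsad2 was also lost without a filter on low counts (0.0524), and Ifitm3 with only the 6 libraries compared (0.0602) and without Sham 2, ICH 1 and EDB 3 together (0.0996).

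Among genes not called in EDB against Sham were Ifitm1 (0.87 ± 0.55, adjusted p = 0.390), Ifitm2 (0.51 ± 0.22, adjusted p = 0.186), Irf2 (0.44 ± 0.15, adjusted p = 0.103), Gbp5 (0.87 ± 0.37, adjusted p = 0.190), Ifih1 (0.79 ± 0.42, adjusted p = 0.297) and Ifi44l (1.12 ± 0.55, adjusted p = 0.258). Gbp7 (1.70 ± 0.47, adjusted p = 0.0520) was called with RLE scaling (adjusted p = 0.0489), without a filter (0.0474), with DESeq2 (0.00994), without EDB 3 (0.0270) and without Sham 2, ICH 1 and EDB 3 together (0.0256). Ifi44 (1.08 ± 0.31, adjusted p = 0.0549) was called with DESeq2 (adjusted p = 0.00814), without ICH 1 (0.0436) and without those 3 libraries together (0.0412). Irf3 was the gene with the lowest value, at 8.66, 9.35 and 11.6 CPM in EDB against 19.4, 12.6 and 20.9 CPM in Sham, without overlap (-0.84 ± 0.27, adjusted p = 0.0879). Irf3 was called lower without Sham 2 (-1.03, adjusted p = 0.0340), with DESeq2 (-0.84, adjusted p = 0.0322) and without Sham 2, ICH 1 and EDB 3 together (-1.16, adjusted p = 0.0221). Ifnar1 had -0.13 ± 0.10 and Ifnar2 0.31 ± 0.15.

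Libraries of a group differed in the same direction over many of the genes. In ICH, ICH 3 was the lowest of its group for 42 of the 59 genes and the highest for 5. In EDB, EDB 2 was the highest for 39 and EDB 3 the lowest for 39. These ranks were not counted over all tested genes, so nothing particular to this set is read from them. Summed over the 70 genes, the level was 1314 to 1499 CPM in Sham, 3793, 3677 and 3003 CPM in the ICH libraries 1 to 3, and 2723, 3114 and 2196 CPM in the EDB libraries 1 to 3.

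Summed markers of microglia, macrophages, monocytes and neutrophils moved between the groups in the direction of these genes. The 2 tested T and NK cell markers were not called. Of all tested genes, for these markers and the lists below, 11.4% were called higher and 7.30% lower in ICH against Sham. In EDB against Sham 4.95% were called higher and 2.71% lower, and in EDB against ICH 0.0560% and 0.631%. At an unadjusted p under 0.05, 6.26% were higher and 9.98% lower in EDB against ICH. All 14 microglia and macrophage markers, among them Aif1, Csf1r and C1qa, were tested, 12 rose in ICH against Sham, and 11 were higher in EDB than in Sham. In EDB against ICH 0 of the 14 were called, while 10 were lower and 0 higher at an unadjusted p under 0.05, with a median log2 fold change of -0.62. Their summed level was 738 to 858 CPM in Sham, 3471, 3759 and 3926 CPM in the ICH libraries 1 to 3, and 2994, 2849 and 1697 CPM in the EDB libraries 1 to 3. EDB 3 was the lowest of its group for both sums. ICH 3 had the highest microglia and macrophage sum of its group and the lowest sum of interferon genes.

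Monocyte and border macrophage markers summed to 41.1 to 59.3 CPM in Sham, 422 to 686 CPM in ICH and 144 to 217 CPM in EDB, and 4 of 6 tested rose in ICH against Sham. In EDB against ICH 1 of the 6, the lysozyme gene Lyz2, was called lower (-1.84 ± 0.27, adjusted p = 0.0244), 4 were lower at an unadjusted p under 0.05, and the median was -1.23. Whether the Lyz2 call is kept with another method or with a library left out was not examined. Ccr2, which defines inflammatory monocytes, was at 0 to 10 counts. Neutrophil markers summed to 8.81 to 11.3 CPM in Sham, 55.6 to 67.9 CPM in ICH and 21.6 to 38.8 CPM in EDB, and 3 of 5 tested rose in ICH against Sham. In EDB against ICH 0 of the 5 were called and 1 was lower at an unadjusted p under 0.05, against 9.98% of all genes, with a median of -0.87. Mpo and Elane, which are transcribed mainly in bone marrow precursors of the lineage rather than in mature neutrophils, were at 0 to 2 counts.

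Of 5 markers of plasmacytoid dendritic cells, the main producers of type I interferon, Siglech had 1 count in all libraries and Klk1 had 0, and 2 of the other 3, Bst2 and Irf8, belong to the interferon set itself. The astrocyte marker Gfap stood at 544, 505 and 403 CPM in Sham, 5041, 5163 and 4542 CPM in ICH and 3127, 2803 and 3768 CPM in EDB. Of the 7 tested astrocyte markers 2 rose in ICH against Sham, 4 values were above 0, and the median was 0.16. In EDB against Sham 1 was called higher and 1 lower, 2 values were above 0, and the median was -0.14. In EDB against ICH 0 of the 7 were called, and 5 were lower at an unadjusted p under 0.05, against 9.98% of all genes. Of the 7 tested striatal neuron markers 4, among them Drd2 and Adora2a, were called lower in ICH against Sham, against 7.30% of all genes. Their median was -0.61. In EDB against ICH 0 of these 7 neuron markers were called, all 7 values were above 0, and the median was 0.43. At an unadjusted p under 0.05, 3 of them were higher, against 6.26% of all genes. Of the 5 tested endothelium markers 1 was called lower and 0 higher in ICH against Sham, 1 value was above 0, and the median was -0.42. In EDB against ICH 0 of these 5 were called, and the median was -0.04. The part of microglia, monocytes, neutrophils, astrocytes, neurons and endothelium in the levels of the interferon genes was not tested. For T and NK cells, defining markers were at or near 0 in all libraries, as given beside Stat4.

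**Figure D5:**
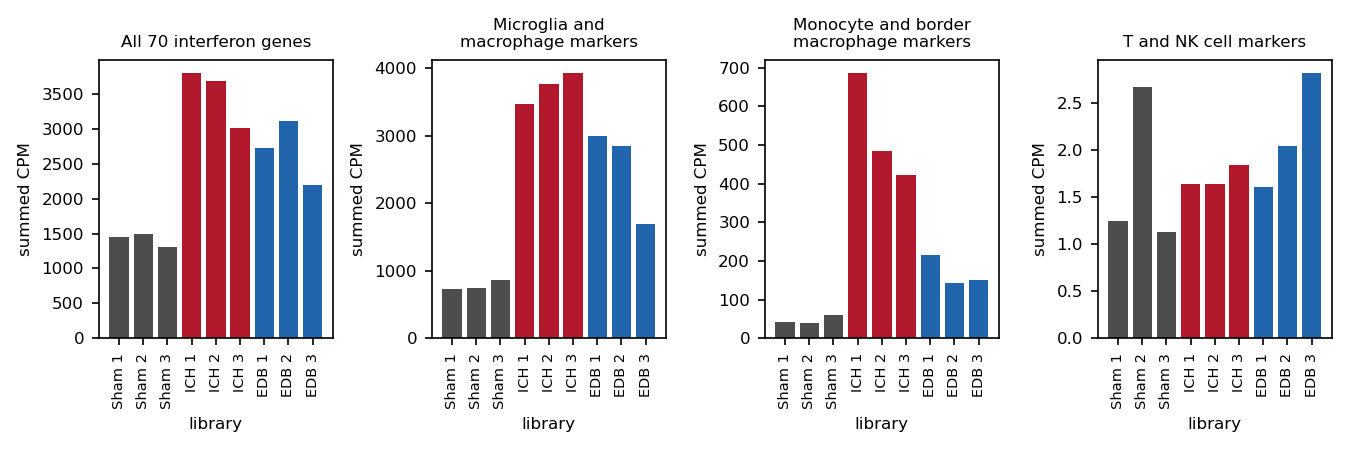
Summed CPM per library of all 70 genes of the set, with the 4 matched by spelling included, and of 3 marker lists, with axes from 0 that differ between panels. Bars are single libraries, coloured by group. The interferon sum and the microglia and macrophage sum are both highest in ICH and lowest in Sham, ICH 3 is the lowest ICH library for the first and the highest for the second, and T and NK cell markers stay under 3 CPM.

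Genes upstream and around the pathway, from lists written apart from the name rule, moved in part. Of 15 tested genes of nucleic acid sensing, 9 rose in ICH against Sham and 0 fell, with a median of 1.58. Over all tested genes 11.4% were called higher there and 7.30% lower. Unc93b1, which escorts toll-like receptors to endosomes, stood at 14.2, 17.02 and 15.4 CPM in Sham, 103, 118 and 97.7 CPM in ICH and 77.2, 73.1 and 43.6 CPM in EDB and rose by 2.77 ± 0.21, adjusted p = 2.42e-05. Trim25, a ligase that activates RIG-I, rose by 1.82 ± 0.21, adjusted p = 0.000160, and the adaptor Myd88 by 1.25 ± 0.15, adjusted p = 0.000223. Tlr8, an RNA sensor of phagocytes, rose by 4.44 ± 0.74, adjusted p = 0.00201, from 0 to 0.437 CPM in Sham. None of these genes was called in EDB against ICH, where the unadjusted count was 6 lower and 0 higher, against 9.98% and 6.26% of all genes.

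Of 8 tested kinases and further receptor chains, 2 rose in ICH against Sham and 0 fell, against 11.4% and 7.30% of all genes. The 2 were Il6r, the interleukin 6 receptor (1.16 ± 0.15, adjusted p = 0.000298), and Osmr, the oncostatin M receptor (1.496 ± 0.44, adjusted p = 0.0363). The kinases of the type I receptor were not called, with 0.51 ± 0.18, adjusted p = 0.0826 for Jak1 and 0.39 ± 0.14, adjusted p = 0.0793 for Tyk2. Jak3 and Il10rb were listed with 0 counts in all libraries.

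Of 12 tested genes in the list of negative regulators of Jak-Stat signalling, 4 rose in ICH against Sham, against 11.4% of all genes. Of these, Socs3 and Ptpn6 act on that signalling, whereas Samhd1 and Trex1 limit nucleic acid sensing upstream of interferon. Socs3, which blocks the kinases and is a target of Stat3, stood at 2.81, 2.39 and 2.76 CPM in Sham, 22.7, 18.8 and 17.9 CPM in ICH and 8.04, 4.67 and 3.87 CPM in EDB. It rose in ICH against Sham by 2.89 ± 0.29, adjusted p = 7.14e-05, and it was lower in EDB than in ICH, by -1.84 ± 0.27, adjusted p = 0.0244, the 1 gene of this list called there. Whether the Socs3 call is kept with another method or with a library left out was not examined. Ptpn6, the phosphatase SHP-1 of blood cells, rose by 3.05 ± 0.26, adjusted p = 3.46e-05. Samhd1, which depletes nucleotides, rose by 1.04 ± 0.19, adjusted p = 0.00296, and the DNA exonuclease Trex1 by 0.57 ± 0.15, adjusted p = 0.0228. Socs1, a feedback inhibitor of interferon receptors, had 0.96 ± 0.42, adjusted p = 0.148.

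Of 34 further interferon-stimulated genes outside the name rule, 28 rose in ICH against Sham and 0 fell, with a median of 1.42. In EDB against ICH 0 were called, with 15 lower and 0 higher at an unadjusted p under 0.05, and in EDB against Sham 17 were higher. Lgals3bp, a secreted glycoprotein, stood at 56.3, 55.2 and 41.7 CPM in Sham, 349, 311 and 299 CPM in ICH and 241, 217 and 219 CPM in EDB and rose by 2.64 ± 0.14, adjusted p = 4.68e-06. The immunoproteasome subunit Psmb8 rose by 1.99 ± 0.16, adjusted p = 2.72e-05, Epsti1 by 3.497 ± 0.34, adjusted p = 6.77e-05 and the apoptosis factor Xaf1 by 1.82 ± 0.18, adjusted p = 6.77e-05. The 28 genes that rose stand beside 11.4% of all tested genes called higher, and the 17 higher in EDB beside 4.95%. For EDB against ICH the shares of all tested genes were 0.631% called lower and 0.0560% called higher. At an unadjusted p under 0.05 they were 9.98% lower and 6.26% higher.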

How the data were processed

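The deposited files hold raw read counts per gene, 1 file per library, as whole numbers. The submitters' processing notes name the rat build Rnor_6.0 and, with no order or role, limma, HTSeq, HISAT2 and cutadapt. Tool versions, the annotation and the strand setting are not given in these sources.

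The analysis used edgeR 4.0.16 under R 4.3.3. Of 22890 genes, 14274 passed filterByExpr by group. A quasi-likelihood model (glmQLFit, robust) with 1 mean per group was fitted to the 9 libraries after TMM scaling. Adjusted p-values are Benjamini-Hochberg values over all 14274 genes, called under 0.05, and SE is that of the fitted log2 fold change with 3 libraries against 3. The code was tested on simulated data. CPM use TMM-scaled library sizes, and counting intervals at 95% are exact and cover counting error only.

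The genes and lists were chosen with earlier results of these data known. By rule, every measured Irf, Stat, Ifnar and Ifngr gene and every gene called is named, other than an item not reported here, with up to 4 genes of each further list. Alternatives were RLE scaling, library size only, no filter, a filter of 1 CPM in 3 libraries, limma-voom 3.58.1, DESeq2 1.42.0, only the 6 libraries compared, a replicate block and leaving out each library. Leaving out Sham 2, ICH 1 and EDB 3 together was added after seeing the data. Same-numbered libraries did not deviate together, so numbers were not taken as pairs. Promoters were read from RefSeq windows on GRCr8, and no coordinates were moved between builds.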

Additional observations from a re-analysis of the deposited data

How the results depend on the processing

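The count of genes higher in ICH than in Sham was 42 and ran from 39 to 43 over the alternatives other than leaving out 1 library, and from 40 to 44 when 1 library was left out. Of all tested genes, 11.4% were called higher as reported, 8.72% to 14.1% over the former and 8% to 11.3% over the latter. The count lower was 0 and ran from 0 to 1 when 1 library was left out. Over all tested genes the share lower was 7.30%, and it ran from 3.91% to 6.86% when 1 library was left out. The count lower in EDB than in ICH was 2, and it was 7 with DESeq2, 1 with limma-voom, 0 with only the 6 libraries compared, 1 without Sham 2, ICH 1 and EDB 3 together, and 0 to 2 when 1 library was left out. Over all tested genes the share lower was 0.631%, 3.37% with DESeq2, 1.13% with limma-voom and 0.599% with only the 6 libraries compared. That share was 0.99% without Sham 2, ICH 1 and EDB 3 together and 0.0552% to 1.58% when 1 library was left out. The count higher there was 0 in every alternative run. Higher in EDB than in Sham were 34 genes, with 29 to 36 over the other alternatives and 25 to 35 when 1 library was left out. Of all tested genes, 4.95% were called higher as reported, 3.76% to 7.33% over the other alternatives and 2.58% to 6.44% when 1 library was left out. The count lower there was 0, and it was 1 (Irf3) with DESeq2, 1 without Sham 2, ICH 1 and EDB 3 together, and 0 to 1 when 1 library was left out. Over all tested genes the share lower was 2.71%, 5.28% with DESeq2, 4.75% without those 3 libraries together and 0.926% to 5% when 1 library was left out. The cause of these differences was not tested. With the replicate number as a block the counts were 42 higher and 0 lower in ICH against Sham, 0 higher and 2 lower in EDB against ICH, and 31 higher and 0 lower in EDB against Sham. In the same order, the shares of all tested genes were 9.44% and 5.23%, 0% and 0.406%, and 4.01% and 1.6%. Correlations of same-numbered libraries' deviations ran from -0.31 to 0.25, and not every library correlated best with its own number. No named gene that was called changed direction in any alternative. Scaling by another method moved the median of all genes by at most 0.097 (log2). Depth limits the genes with few counts, such as Irf9, Stat6 and the smaller Oas1 genes: of the 11 genes the filter removed, 9 were tested in the fit without it and 0 were called.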

Other observations

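Genes of antigen presentation and chemokines that interferon can induce were measured beside the set and are given as values. They belong to the list of further interferon-stimulated genes outside the name rule, so the calls among them are already counted there. Tap1, which carries peptides into the endoplasmic reticulum, stood at 10.2, 10.7 and 7.29 CPM in Sham, 48.1, 43.3 and 32.1 CPM in ICH and 23.7, 31.8 and 23.7 CPM in EDB, and its log2 fold change in ICH against Sham was 2.13 ± 0.21, adjusted p = 8.05e-05 by edgeR. B2m, the light chain of class I molecules, had 1.37 ± 0.21, adjusted p = 0.00107. Cxcl10, which attracts activated T cells, stood at 0.562, 1.91 and 0.495 CPM in Sham, 24.3, 9.37 and 4.37 CPM in ICH and 5.94, 7.67 and 2.31 CPM in EDB and had 3.67 ± 0.74, adjusted p = 0.00611 in ICH against Sham, with ICH 1 the highest library. Cxcl9, a chemokine tied to type II interferon, had 16 summed counts in Sham, 24 in ICH and 9 in EDB and did not pass the filter. These genes were singled out after their values were seen.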
